A study of Mus musculus with 2 samples.

Results

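The 32 genes described here encode the enzymes that build cholesterol from acetyl-CoA, the enzymes that build, desaturate and elongate fatty acids, and the SREBP proteins that control both. They are listed by name from knowledge of the pathway, with earlier results of these data known, and all 32 were found among the 20330 genes measured in sorted adipose tissue macrophages (ATM). By role, 16 belong to sterol synthesis, 5 to SREBP control, 4 to acetyl-CoA supply and fatty acid chain building, and 7 are desaturases and elongases.

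The sequencing was done to learn how ATM without HIF-1α, the oxygen-regulated subunit of HIF-1, come to produce heat, by comparing their expression with that of WT ATM. The KO library came from hMRP8cre+, Hif-1αfl/fl, ApoE-/- mice and the WT library from Hif-1αfl/fl, ApoE-/- mice without the Cre, all on a C57BL/6 background and all fed a high fat diet (HFD) for 12 weeks. By their labels, both genotypes were thus null for ApoE, a carrier protein of cholesterol. hMRP8cre expresses the Cre recombinase from a human myeloid promoter, so the deletion is not limited to ATM. Cells positive for F4/80 and CD11b were sorted from visceral fat. There was 1 library per genotype, and whether a library held RNA of 1 animal or of several is not given in the sources used here. The study's methods start the diet at 4 weeks of age, and the labels give no age. In the absence of replicates, the differences below could not be set against a spread and were not tested.

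Sterol synthesis begins with HMG-CoA and mevalonate, passes through isoprenoid diphosphates to squalene, and ends with the ring-closed sterols that are trimmed to cholesterol. Fatty acid synthesis starts from the same acetyl-CoA, which ACLY makes from citrate and ACSS2 from acetate. SREBP transcription factors switch on the genes of both routes. SCAP carries the SREBP precursor to the Golgi for cleavage when sterols are low, and the INSIG proteins hold it back in the endoplasmic reticulum when sterols are high. Macrophages take up cholesterol and fat from dying cells and lipoproteins, and LXR receptors, which sense oxysterols, raise Srebf1 expression.

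The sequence that SREBP proteins bind, the sterol regulatory element, is classically written TCACNCCAC and is often accompanied by a CCAAT box, which NF-Y binds. The 250 bases before the start of 5 member genes are printed for the reader to see these letters in members that turned out at 0, lower, higher and abundant. Capitals mark TCACNCNAC, which allows any base at a position of the classical form, and CCAAT on either strand, which reads ATTGG on the printed strand. The sequences and coordinates are from RefSeq, build GRCm38.p6, 5′ to 3′ in the direction of transcription.
Hmgcs1, chr13:119690101-119690350, plus strand: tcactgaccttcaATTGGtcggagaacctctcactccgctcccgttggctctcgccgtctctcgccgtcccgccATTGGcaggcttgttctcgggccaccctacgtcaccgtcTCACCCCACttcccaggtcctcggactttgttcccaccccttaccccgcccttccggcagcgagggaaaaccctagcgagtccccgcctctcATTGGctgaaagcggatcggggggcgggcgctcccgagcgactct
Lss, chr10:76531355-76531604, plus strand: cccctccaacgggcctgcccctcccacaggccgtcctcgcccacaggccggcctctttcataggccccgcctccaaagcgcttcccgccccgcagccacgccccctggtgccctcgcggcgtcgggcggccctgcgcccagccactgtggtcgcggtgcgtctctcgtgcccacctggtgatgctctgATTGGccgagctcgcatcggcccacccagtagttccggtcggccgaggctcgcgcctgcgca
Nsdhl, chrX:72918271-72918520, plus strand: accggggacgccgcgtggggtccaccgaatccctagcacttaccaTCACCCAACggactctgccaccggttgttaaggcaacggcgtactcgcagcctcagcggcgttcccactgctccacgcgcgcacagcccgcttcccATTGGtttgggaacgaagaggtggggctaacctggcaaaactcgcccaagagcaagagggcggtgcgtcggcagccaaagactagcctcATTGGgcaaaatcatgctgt
Ebp, chrX:8193513-8193762, minus strand: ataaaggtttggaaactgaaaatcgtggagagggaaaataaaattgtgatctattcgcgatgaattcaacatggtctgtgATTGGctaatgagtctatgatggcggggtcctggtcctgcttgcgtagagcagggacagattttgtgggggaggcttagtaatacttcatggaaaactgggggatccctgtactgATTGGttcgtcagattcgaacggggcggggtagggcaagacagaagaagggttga
Insig1, chr5:28071162-28071411, plus strand: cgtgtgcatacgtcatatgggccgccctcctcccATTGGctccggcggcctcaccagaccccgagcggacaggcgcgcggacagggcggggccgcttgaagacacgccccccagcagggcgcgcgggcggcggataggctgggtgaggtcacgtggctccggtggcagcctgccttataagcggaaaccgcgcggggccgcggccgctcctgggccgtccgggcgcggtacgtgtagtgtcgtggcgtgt
Hmgcs1 held the strict element TCACCCCAC at 137 bases before the start, and Nsdhl held the looser TCACCCAAC at 205 bases before it. Lss, Ebp and Insig1 held neither form in these 250 bases. For Lss, Ebp and Insig1, bases just after the start used were found in a GENCODE M21 transcript of the gene. For Hmgcs1 and Nsdhl they were not found, so the starts of Hmgcs1 and Nsdhl and the distances given are less certain.

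Values are FPKM, fragments per kilobase of transcript scaled to library size, so levels of different genes can be set beside each other. Hif1a, the targeted gene, had an FPKM of 30.4 in WT and of 21.0 in KO, 1.45-fold lower, but a whole-gene value does not isolate the deleted exon and so does not check the label. Apoe was listed at 94.3 in WT and 117 in KO although both genotypes were labelled ApoE-/-. As for Hif1a, a whole-gene value does not isolate the disrupted part of the gene and so does not check that label. Reads over that part were not analysed here. The sorted antigens were abundant in both libraries, with Adgre1 (F4/80) at 299 and 239 and Itgam (CD11b) at 128 in each. None of the 12 measured macrophage markers differed 3-fold, and their summed FPKM was 16600 in WT and 16131 in KO. Neutrophil markers summed to 181 in WT and 546 in KO, with 6 of 7 higher in KO and Camp at 0 in both. Fibroblast markers summed to 49.1 and 90.6, with 6 of 6 higher in KO, and all 4 measured T cell markers were at 0 in both. Summed endothelial markers were at 14.6 and 16.1, mesothelial at 0 and 7.84, B cell at 2.75 and 6.46, and dendritic cell at 2.18 and 9.54. Fewer cells of a type and less RNA per cell cannot be told apart in these bulk libraries, and the part of these markers in the differences below was not tested. From the most frequent cluster of low values, taken as 1 fragment, the depth was estimated at 5860000 fragments in WT and 7470000 in KO. A value of 0 need not mean silence, since 9 of 139 genes of ribosomes, proteasomes, RNA polymerase II and the CCT chaperonin were also listed at 0 in WT and 7 in KO.

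Of the 32 genes, 26 reached 1 FPKM in at least 1 library. The largest differences among them were the low or absent Fdps, Sqle and Lss in KO and the higher Scd1 and Ebp in KO. A difference is given as log2(FPKM + 1), KO minus WT, and a gene was counted at 3-fold or more on that scale, which understates the change of low genes. By this measure 2 genes were higher and 4 lower in KO. Nearest to the threshold of 1.58, Ebp at 1.86 and Nsdhl at -1.84 were inside, and Sc5d at -1.46 and Scap at -1.39 outside. That is 23.1% of the 26, against 27.3% of all 10297 genes that passed the same filter, so the share was near the background. In 1 direction, 13.6% of all genes were higher and 13.7% lower. The median difference was 0.03 for the members and 0.03 for all genes, with 13 members above 0 and 13 below. Among the 23 members above 0 in both libraries, 17.4% differed 3-fold, against 16.9% of such genes overall.

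**Figure D1:**
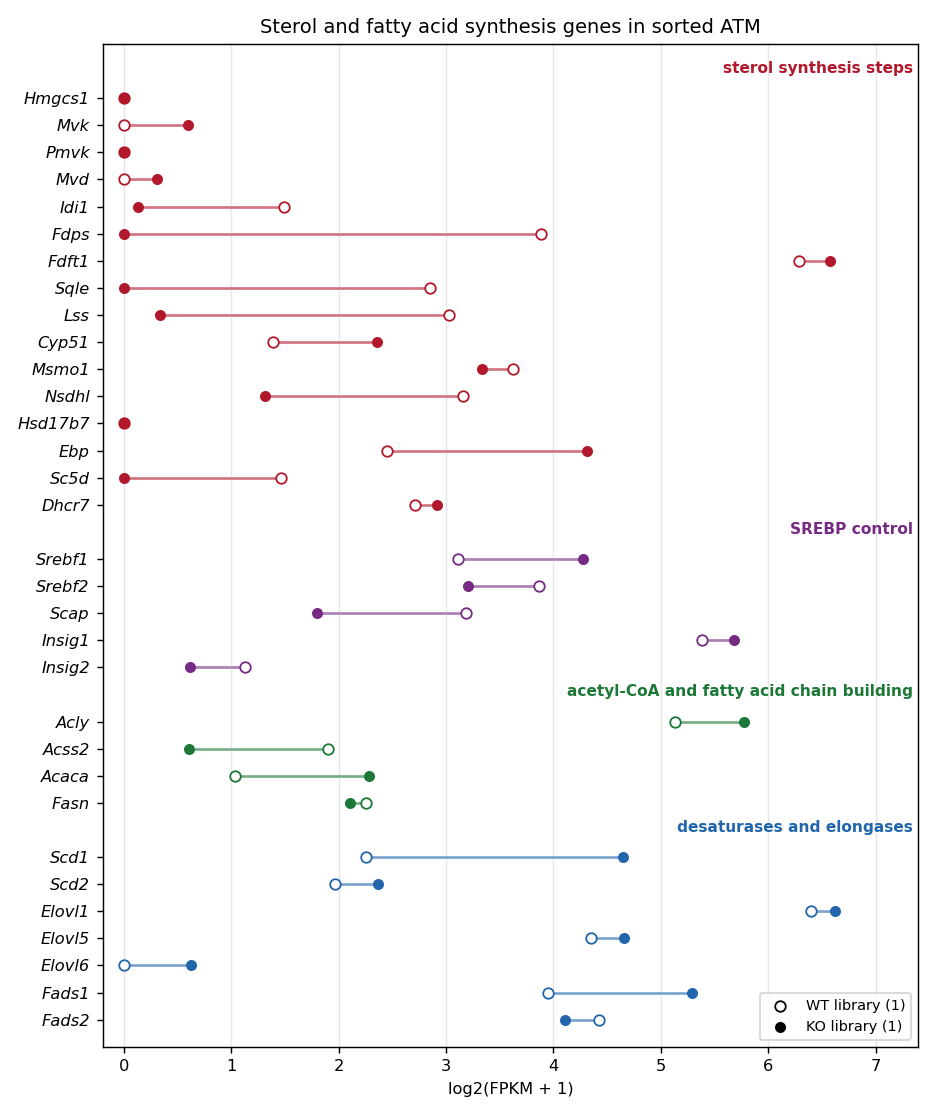
Level of each of the 32 genes as log2(FPKM + 1) in the WT library (open) and the KO library (filled), 1 library each, grouped by role. Fdps and Sqle lie at 0 in KO, while Scd1 and Ebp lie further right in KO.

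**Figure D2:**
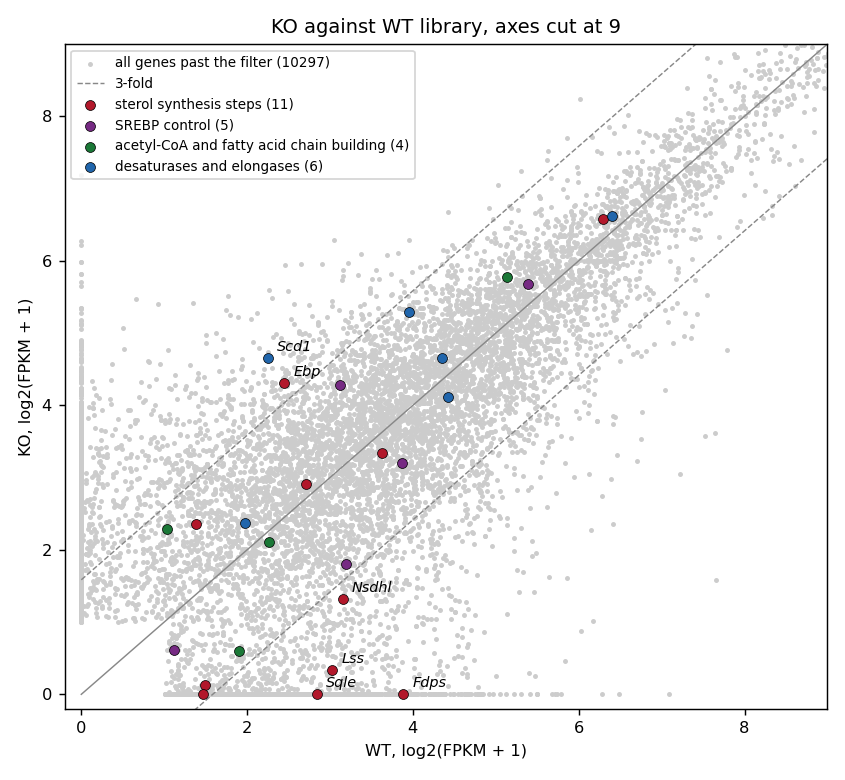
KO against WT as log2(FPKM + 1) for the 26 members past the filter, coloured by role, over all 10297 such genes in grey, with the line of equality and dashed lines at 3-fold. The 6 named members lie outside the dashed lines and the other 20 between them.

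The share of genes with a 3-fold difference depended on level. Of all genes with a mean of 2 to 5 FPKM, 49% differed 3-fold, but 3.46% did at 50 FPKM or more. Below a mean of 2 FPKM the share was 41.7%, and none of the 4 members there (Idi1, Sc5d, Insig2 and Acss2) differed 3-fold. Of the 7 members at 2 to 5 FPKM, 3 differed, namely Sqle, Lss and Nsdhl. Of the 3 at 5 to 10 FPKM, only Fdps differed, beside 32.4% of all genes. At 10 to 20 FPKM, Ebp and Scd1 differed among 6 members, beside 20.6% of all genes. None of the members with a mean above 20 FPKM differed 3-fold. These were Insig1, Acly, Elovl5 and Fads1 at 20 to 50 FPKM, beside 11.7% of all genes, and Fdft1 and Elovl1 above that.

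**Figure D3:**
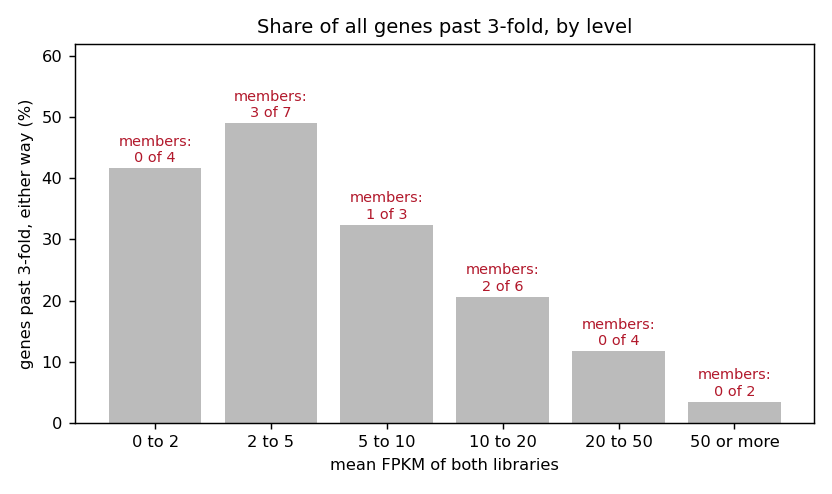
Percent of all genes past the filter that differed 3-fold in either direction (bars), by the mean FPKM of both libraries, with the number of members counted above each bar. The bars drop from 49% at 2 to 5 FPKM to 3.46% at 50 or more, and the members that differed 3-fold lie between 2 and 20 FPKM.

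The sterol enzymes spanned the widest range of differences among the roles. Of the 16, 11 passed the filter, 1 was higher and 4 lower in KO, and the median difference was -1.36. The 5 counted make 45.5% of the 11, beside 27.3% of all genes, and a share over so few genes describes these libraries alone. Without the 3 enzymes listed at 0 in KO, which were lower there by that value, the median of the other 8 was -0.04. The sign of the median turned with the filter, to 0.24 over genes with 1 FPKM in both libraries and to 0.20 over those with a mean of 5 FPKM, and it was 0 with no filter. The summed FPKM of the arm was 139 in WT and 135 in KO, but 61.6 and 41.2 without Fdft1.

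The 6 members that act before squalene synthase were low or listed at 0, other than Fdps in WT. Hmgcs1, which makes HMG-CoA, and Pmvk, which phosphorylates phosphomevalonate, were listed at 0 in both libraries. Mvk (mevalonate kinase) was at 0 in WT and 0.515 in KO, and Mvd, the decarboxylase that yields isopentenyl diphosphate, at 0 and 0.240. Idi1, which converts isopentenyl diphosphate to its isomer, was at 1.82 in WT and 0.0938 in KO, a value that corresponds to about 2.12 fragments. Fdps, which joins these units into farnesyl diphosphate, was at 13.8 in WT and was listed at 0 in KO. No fold is given against a value of 0. Among all genes past the filter, 7.86% were listed at 0 in KO with a value in WT, and Fdps, Sqle and Sc5d were the members of this kind. In the other direction, 9.26% of all genes and no member past the filter were listed at 0 in WT with a value in KO.

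Fdps and Idi1 have near copies elsewhere in the genome. Of the stretches of 50 bases in the Fdps transcript, 86.4% also occurred in other genes, 77.3% in the overlapping gene model Gm43738 and 40.1% in the processed pseudogene Gm3571. For Idi1 the shared part was 30.5%, of which the processed pseudogene Gm13502 held 21.3%. How reads from such stretches were assigned is not given in the sources used here, so the values of both genes are uncertain.

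Fdft1, squalene synthase, which commits farnesyl diphosphate to sterols, was the most abundant sterol enzyme, with 77.3 in WT and 94.2 in KO, a difference of 0.28. Its transcript overlaps that of Ctsb, a lysosomal protease on the opposite strand, over 19.9% of its stretches. Ctsb was at 1632 in WT and 1718 in KO. The labels name no step that keeps strand, so reads of the pair cannot be told apart in the overlap. A further 10.9% of the Fdft1 stretches occurred in the processed pseudogene Gm6781, for 30.7% shared in all, and the level of Fdft1 is uncertain.

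Sqle and Lss act in sequence, and both were lower in KO. Sqle, which adds oxygen to squalene, was at 6.20 in WT, or about 100.1 fragments, and was listed at 0 in KO. Lss, which closes the squalene epoxide to lanosterol, was at 7.16 in WT and 0.259 in KO, 27.7-fold lower, with about 196 and 9.01 fragments. On the log2(FPKM + 1) scale the difference of Lss was -2.70. No 50-base stretch of Sqle occurred in another gene, and 4.35% of those of Lss did, all in an antisense transcript.

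Of the enzymes that first trim lanosterol, only Nsdhl differed 3-fold. Cyp51, which removes a methyl group, was at 1.62 in WT and 4.12 in KO. Msmo1, an oxidase of the further methyl groups, was at 11.4 and 9.09. Nsdhl, the dehydrogenase that acts after Msmo1 on the same carbon, was at 7.90 and 1.49, 5.31-fold lower in KO, and counted at 3-fold with a difference of -1.84. Hsd17b7, the ketoreductase of that complex, was listed at 0 in both. Neighbouring steps of 1 enzyme complex thus gave 3 different readings.

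Ebp was the only sterol enzyme counted as higher. This isomerase, which shifts a double bond in the sterol ring, was at 4.47 in WT and 18.8 in KO, 4.22-fold higher, with about 45.6 and 245 fragments and a difference of 1.86. Sc5d, the desaturase of the next step, was at 1.76 in WT and listed at 0 in KO, a difference of -1.46 that fell short of 3-fold. Dhcr7, the last reductase on the route through dehydrocholesterol, was nearly level at 5.56 and 6.55. No stretch of Ebp, Nsdhl, Msmo1 or Dhcr7 occurred in another gene.

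All 5 SREBP control genes passed the filter and none differed 3-fold, beside 27.3% of all genes. A share over so few genes describes these libraries alone. Srebf1, which encodes SREBP-1, the factor of fatty acid genes, was at 7.66 in WT and 18.4 in KO, 2.40-fold higher. Srebf2, which encodes SREBP-2, the factor of sterol genes, was at 13.6 and 8.21, 1.66-fold lower. Srebf1 was thus the lower of the pair in WT and the higher in KO. Scap, the escort of both precursors, was at 8.11 and 2.48, 3.27-fold lower as a plain ratio and -1.39 on the log2(FPKM + 1) scale. Of its stretches, 13.1% were shared with a transcript on the opposite strand. Insig1, itself a classical SREBP target, was the highest of the role at 40.7 and 50.4, and Insig2 the lowest at 1.18 and 0.531. The median difference of the 5 was -0.51, and -0.18 without Insig2, the lowest of them.

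Acly was the most abundant gene of acetyl-CoA supply and chain building. This ATP citrate lyase was at 34.2 in WT and 53.6 in KO, 1.57-fold higher. Acss2, the acetate route, was at 2.73 and 0.522, 5.23-fold lower as a ratio and -1.29 on the log2(FPKM + 1) scale. These values of Acss2 correspond to about 46.9 and 11.4 fragments. Acly therefore exceeded Acss2 in each library. In the study's own qRT-PCR of sorted ATM, Acly was reported as increased in KO and Acss2 as comparable between genotypes. Acaca, the carboxylase that turns acetyl-CoA into malonyl-CoA, was at 1.04 and 3.88, a difference of 1.25. Fasn, the synthase that extends the chain with malonyl-CoA, was at 3.79 and 3.31. None of these 4 genes was counted at 3-fold, beside 27.3% of all genes, and so few genes describe these libraries alone. Their median difference was 0.24, beside 0.03 for all genes. It was 0.63 without Acss2, which did not reach 1 FPKM in KO.

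The value of Acaca is uncertain, because 52.6% of its 50-base stretches also occurred in the processed pseudogene Gm5182. Primers from the study's qRT-PCR panel are shown for Acaca and Scd1, since both genes have near copies.
Acaca forward: gcctcttcctgacaaacgag
Acaca reverse: tgactgccgaaacatctctg
Scd1 forward: ttcttacacgaccaccacca
Scd1 reverse: gcaggagggaaccagtatga
The Acaca pair delimits 239 bases of its transcript and also matched Gm5182 in full. The Scd1 pair delimits 244 bases, matched 1 of 3 Scd1 transcripts and matched no other gene.

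Scd1 gave the largest higher value in KO among the members. Scd1, the stearoyl-CoA desaturase that makes oleate from stearate, was at 3.77 in WT and 24.1 in KO, 6.38-fold higher, with about 107 and 868 fragments and a difference of 2.39. Scd2, its close paralogue, was at 2.92 and 4.17, a difference of 0.40. In WT the pair lay close together, and in KO Scd1 stood well above Scd2. Their coding sequences were 90.4% identical, with a longest shared run of 147 bases, yet only 4.66% of the 50-base stretches of Scd1 and 4.01% of those of Scd2 occurred in another gene. Because Scd1 is also high in adipocytes, the adipocyte markers are given beside it. They summed to 113 FPKM in WT and 134 in KO, and to 22.6 and 42.2 without Fabp4. Fabp4, which macrophages express too, was at 90.1 and 91.4. Adipoq, Plin1, Cidea and Retn were at 0 in both, and Lipe was at 16.8 and 20.1. Car3 was at 0 in WT and 13.4 in KO, Cfd at 0 and 7.11, Lep at 0 and 1.60, and Cidec at 5.83 and 0.

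Elovl1 was among the most abundant members and Elovl6 among the least. Elovl1, which lengthens very long saturated chains, was at 83.5 in WT and 97.4 in KO, the highest of the 32 in both. Elovl5, the elongase of polyunsaturated chains, was at 19.4 and 24.2. Elovl6, which lengthens palmitate, was listed at 0 in WT and at 0.544 in KO and did not pass the filter. Fads1 and Fads2 are the desaturases that convert dietary linoleate and linolenate to longer, more unsaturated acids. Fads1 was at 14.4 and 38.2, 2.64-fold higher in KO, while Fads2 was at 20.5 and 16.3. Fads2 was the higher of the pair in WT and Fads1 in KO. Their coding sequences were 67.8% identical with a longest shared run of 17 bases, and no 50-base stretch of Fads1 occurred in another gene.

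Across both fatty acid roles, 10 of 11 genes passed the filter, 1 was 3-fold higher and none was 3-fold lower, 10% beside 27.3% of all genes in either direction. Their median difference was 0.35, with 7 above 0 and 3 below, and their summed FPKM was 186 in WT and 266 in KO. Elovl1 and Acly made up most of both sums.

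**Figure D4:**
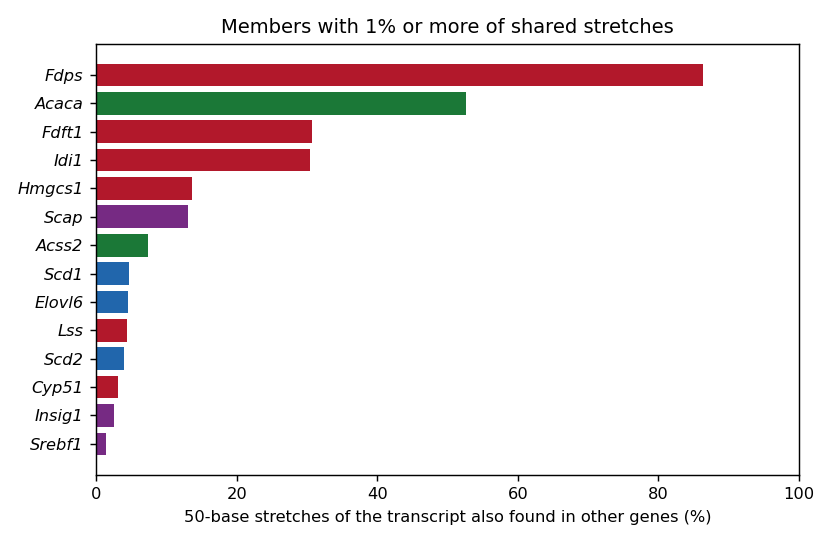
Percent of the 50-base stretches of each transcript that also occur in another gene, for members at 1% or more, coloured by role as in the plot of levels. Fdps at 86.4% and Acaca at 52.6% stand above Fdft1 and Idi1, which are near 30%.

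The promoters of the members were searched on both strands over 300 bases, from 250 before to 50 after the start. RefSeq promoters of 26 of the 32 genes were matched, 35 promoters in all. The other 6 genes are Fdps, Fdft1, Sqle, Scd1, Scd2 and Fads1. CCAAT occurred in 22 of the 26 genes, among them Lss, Nsdhl, Ebp, Srebf1, Insig1, Acly and Fasn, beside 41.1% of all genes. By promoter, it occurred in 65.7% of those of members against 37.4% of all 32851. The GC box GGGCGG, which Sp1 binds, occurred in 74.3% against 35.7%. TCACNCCAC occurred in 1 member, Hmgcs1, beside 1.44% of all genes, and in 2.86% of member promoters against 1.24% of all. TCACNCNAC, which contains that form, occurred in Hmgcs1 and Nsdhl, beside 3.15% of all genes, and in 5.71% of member promoters against 2.7% of all. HIF-1 binds a short core of which both spellings were searched. The first, ACGTG, occurred in 25.7% of member promoters against 19.6% of all. It was found in 8 of the 26 genes, including Insig1, Scap and Acly, beside 21.8% of all genes. The other, GCGTG, occurred in 54.3% against 32.4%, and in 17 of the 26 genes, including Lss and Nsdhl, beside 35.2% of all genes. The palindrome CACGTG, which contains the first HIF-1 core, occurred in 20% against 7.15%. CCAAT and GGGCGG were found in members that were lower in KO, such as Lss and Nsdhl, and in a member that was higher, Ebp, and a match of letters is no evidence of binding. Member promoters were not matched to all promoters by base composition, on which the frequency of such short words depends.

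Other genes of the same routes, 39 named from general knowledge, gave a similar mixture. Of these, 36 were in the table, 28 passed the filter, 4 were 3-fold higher and 5 lower in KO, 32.1% beside 27.3% of all genes. Their median difference was 0.14.

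Among the enzymes, Acat2, which makes the acetoacetyl-CoA used by Hmgcs1, was listed at 0 in WT and at 9.54 in KO. Aacs, which activates acetoacetate for lipid synthesis, was at 6.31 in WT and listed at 0 in KO. Me1, the malic enzyme that supplies NADPH, was at 4.29 and 0.164. Hacd1, a dehydratase of elongation, was at 6.63 and 0. Of its relatives, Hacd2 and Hacd3 were level at 5.97 and 5.25 and at 5.37 and 5.73. Hacd4 was at 16.8 and 28.5, 1.70-fold higher in KO. Elovl7, a further elongase, was at 0.119 and 2.82. Tecr, the reductase that ends each elongation cycle, was the highest of these genes at 73.8 and 120.1.

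Among the regulators, Mbtps2, a protease that releases the SREBP factors, was at 5.30 in WT and 0.734 in KO, while Mbtps1, which cuts before it, was at 6.83 and 11.9. Nr1h3, which encodes LXRα, was at 12.9 and 2.97, 4.34-fold lower in KO, and Nr1h2, which encodes LXRβ, was at 47.3 and 37.5. Mid1ip1, a partner of the acetyl-CoA carboxylases, was at 4.63 and 28.0, and Acsl5, which activates fatty acids, at 6.51 and 31.5. Its relatives Acsl1 and Acsl4 were closer, at 4.36 and 5.25 and at 22.0 and 29.3. Slc25a1, which exports the citrate that ACLY cleaves, was at 34.8 and 18.5, lower in KO where Acly was higher.

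**Figure D5:**
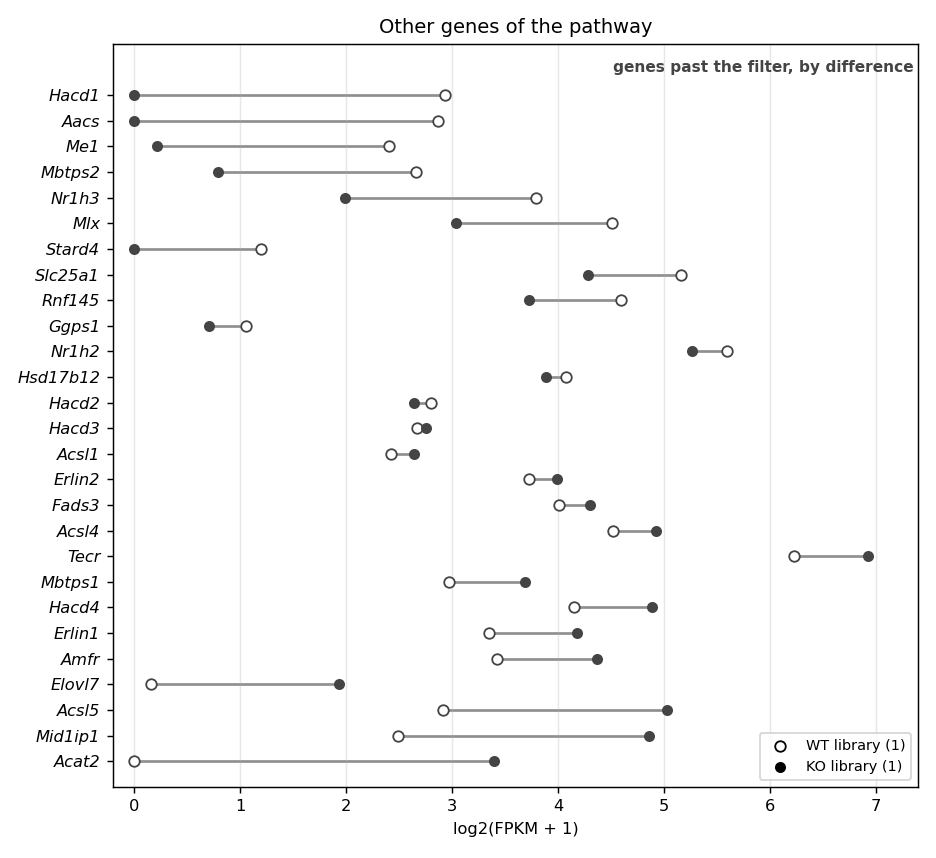
Level as log2(FPKM + 1) in the WT library (open) and the KO library (filled) of 27 of the 28 other pathway genes past the filter, ordered by difference. Hacd1, Aacs and Me1 at the top are lower in KO, and Acat2, Mid1ip1 and Acsl5 at the bottom are higher.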

How the data were processed

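RNA sequencing of 1 WT and 1 KO library of sorted ATM was analysed. Poly(A) RNA was copied with random hexamers, amplified and size-selected on a gel. The authors deposited an FPKM value per gene and library, and the submitters' processing notes name CASAVA 1.8.2, TopHat2 2.0.9, Cufflinks 2.2.1 and build mm9. The gene annotation is not given in the sources used here. The value column headed mut was read as the KO library, the only library that was not WT. Of 20749 rows, 401 repeats were dropped, and 18 rows with other values for a listed identifier were summed, which left 20330 genes. Symbols came from GENCODE M21, which matched 98.5% of identifiers.

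Differences are log2(FPKM + 1), KO minus WT, for genes that reached 1 FPKM in either library, without a count model or test, because FPKM are not counts and each genotype had 1 library. A threshold of 3-fold on that scale defined higher and lower. All 32 members were named, and 1 of the other pathway genes is not reported here. The members and lists were chosen with earlier results of these data known. Fragment numbers are FPKM times the longest coding transcript of GENCODE M21 in kilobases, divided by a step taken as 1 fragment. The step was the median of the most frequent cluster of values below 1 among genes with 1 transcript. In WT it was 0.171 FPKM x kb, from 18 genes, with 3 genes below it. In KO it was 0.134, from 20 genes, with 0 below it. Fragment numbers are thus estimates and cover counting error only. On 2000 nt of transcript, 3 fragments would give 0.256 FPKM in WT and 0.201 in KO. Stretches of 50 bases were searched on both strands of all GENCODE M21 transcripts. Promoters were those of RefSeq, GRCm38.p6, and no gene coordinates of the mm9 files were converted. Alternatives were a pseudocount of 0.1, 3 other filters, 2 scalings, the highest row of a repeated identifier and a 2-fold threshold. Python 3.11.15, pandas 2.3.3, NumPy 2.4.6, Biopython 1.88 and matplotlib 3.10.9 were used.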

Additional observations from a re-analysis of the deposited data

How the results depend on the processing

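With 1 library per genotype, no value can be set against replicate spread, and single genes below about 20 FPKM often differed between these libraries. No paired analysis was possible because there was 1 library of each genotype, and for the same reason no replicate could be left out. The number of members lower in KO was 4 as reported, beside 1413 of all 10297 genes. With a pseudocount of 0.1 it was 8, beside 1849, and the number higher was 3, beside 1903. Where both libraries had to reach 1 FPKM it was 1 (Nsdhl), beside 447 of 7586 genes, and where the mean had to reach 5 FPKM it was 1 (Fdps), beside 646 of 6872. A 2-fold threshold gave 5 higher and 8 lower, beside 2380 and 2314 of 10297. The median difference of the members was 0.30 and 0.28 under these 2 filters, over 19 and 15 members. For all genes it was 0.03 and 0.02, so there the medians of members and all genes were no longer alike. The median of the sterol enzymes was -2.33 with a pseudocount of 0.1, 0 with no filter, 0.24 with 1 FPKM needed in both libraries and 0.20 with a mean of 5 needed, so it has no stable direction. Of these filters, the former removed Idi1, Fdps, Sqle, Lss and Sc5d, all lower in KO, and no enzyme that was higher, so there the rise follows from the filter. The latter retained Fdps and removed Cyp51, which was higher in KO, along with Idi1, Sqle, Lss, Nsdhl and Sc5d. The median of the SREBP control genes was -0.18 under both filters and -0.72 with a pseudocount of 0.1. That of acetyl-CoA supply and chain building was 0.63 under both filters. With a mean of 5 FPKM needed, this is the value of Acly alone, the only gene of that role retained. No single member changed direction under any alternative that retained it. Of the single-gene values, 6 moved by over 1.5-fold and 158 did not, the 6 all with a pseudocount of 0.1, for Idi1, Fdps, Sqle, Lss, Sc5d and Acss2. Scaling to the same sum shifted the median of all genes from 0.03 to 0.07, and neither scaling changed a count of members. Beyond the filters' own removal of low genes, the cause of these changes was not tested.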
